A study of Mus musculus with 6 samples.

Results

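The mitosis and spindle genes are 38 protein-coding genes whose products drive a cell from mitotic entry to cytokinesis. They were chosen by symbol, and each of the 38 matched 1 Ensembl identifier among the 54232 genes counted. All 38 passed the filter on low counts that left 17299 genes for testing, with 22 to 1904 counts per gene and library. By role they are Cdk1 with 3 cyclins, 5 genes of chromosome structure, 8 kinetochore and checkpoint genes, 5 mitotic kinase and chromosomal passenger genes, 6 spindle motor and assembly genes, 8 central spindle and cytokinesis genes, and 2 genes that act with the anaphase-promoting complex. They were read as a measure of dividing cells in cultures of cortical neurons.

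RNA was sequenced from cortical neurons of wildtype CD1 mice, an outbred stock, in 6 libraries that form 3 groups with a repeat 1 and a repeat 2 each. The control libraries are named PDL, those of the group PA (peptide amphiphile) IKVAV, after a peptide sequence of laminin, and those of the group PA + PS2 IKVAV plus PEDOT-S, a form of a conducting polymer. A treatment tag of peptide amphiphile stands on all 6, controls too, and the sources used here do not spell out PS2, the dose, the plating or the time in culture. Nothing in the labels ties a repeat to a culture or an animal of its own, so the p-values describe the spread among these libraries, which may be technical.

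Library totals ran from 30714311 to 33923681 counts, and 1.20% to 1.94% of counts were mitochondrial. The leading principal component, with 33.5% of the variance, separated repeat 1 from repeat 2, and the next, with 29.5%, separated PA + PS2 from the other libraries. Defining markers of neurons were present: Map2, a dendritic microtubule protein, lay between 2163 and 2439 CPM and Dcx, a microtubule protein of young neurons, between 2205 and 2515 CPM in the 6 libraries. CPM is counts per 1e6 counts, with library sizes scaled by TMM, and on that scale 1 CPM stands for 30.8 to 33.6 counts. In bulk RNA, fewer cells of a type and less RNA per cell cannot be told apart.

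Entry into mitosis is driven by the kinase Cdk1 bound to cyclin A or cyclin B. Condensin and topoisomerase then compact and untangle the chromosomes, kinetochores attach them to spindle microtubules under the watch of a checkpoint, and the anaphase-promoting complex ends the phase by marking cyclin B and securin for destruction. Most of these genes are transcribed together late in the cell cycle, and factors of the MuvB, B-Myb and FoxM1 group and NF-Y are known to act at their promoters through the CHR element and the CCAAT box. Neurons have left the cell cycle, and in the developing cortex these transcripts are known from neural progenitors and from dividing glial precursors.

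Promoters of 5 members are shown because they span the range of responses described here: Cdk1 and Bub1b were among the members with the largest falls with PA + PS2, Top2a is the topoisomerase of mitosis, Cdc20 is the activator of the anaphase-promoting complex, and Smc2 hardly differed between groups. Each is 200 bases of RefSeq sequence on GRCm38.p6, read 5′ to 3′ on the strand of the gene and trimmed to bases outside any annotated exon. Capitals mark matches on either strand to TTTGAA or TTCGAA, forms of the CHR element, and to CCAAT, so TTCAAA and ATTGG are matches on the other strand.
Cdk1, minus strand, chr10:69352939-69353138: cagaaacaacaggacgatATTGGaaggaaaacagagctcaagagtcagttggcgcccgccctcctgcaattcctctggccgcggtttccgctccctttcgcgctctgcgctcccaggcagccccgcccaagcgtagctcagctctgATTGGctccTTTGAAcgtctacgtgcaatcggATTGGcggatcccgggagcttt
Bub1b, plus strand, chr2:118598011-118598210: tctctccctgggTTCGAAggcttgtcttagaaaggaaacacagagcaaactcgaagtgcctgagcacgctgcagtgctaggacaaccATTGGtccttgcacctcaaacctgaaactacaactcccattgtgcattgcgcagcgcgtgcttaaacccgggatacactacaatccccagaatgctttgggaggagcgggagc
Top2a, minus strand, chr11:99024190-99024389: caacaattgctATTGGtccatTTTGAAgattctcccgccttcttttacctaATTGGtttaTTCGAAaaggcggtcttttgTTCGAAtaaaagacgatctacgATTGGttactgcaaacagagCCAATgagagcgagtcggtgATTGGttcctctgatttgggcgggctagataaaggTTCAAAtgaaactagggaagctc
Cdc20, minus strand, chr4:118437353-118437552: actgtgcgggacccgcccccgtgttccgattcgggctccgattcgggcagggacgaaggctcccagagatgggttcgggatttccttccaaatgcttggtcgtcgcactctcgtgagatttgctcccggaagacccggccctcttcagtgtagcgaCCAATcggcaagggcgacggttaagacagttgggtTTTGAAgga
Smc2, plus strand, chr4:52439021-52439220: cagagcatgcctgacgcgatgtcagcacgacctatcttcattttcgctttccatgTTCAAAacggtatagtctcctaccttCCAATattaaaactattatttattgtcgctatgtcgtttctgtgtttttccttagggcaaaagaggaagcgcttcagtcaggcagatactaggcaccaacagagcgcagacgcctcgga

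RefSeq promoters were at hand for 34 members, 36 promoters in all, and the 250 bases before each start were searched on both strands. CCAAT was found in 28 of the 36 (77.8%) and in 33.8% of 32851 promoters of all genes, and at least 2 matches in 18 (50%, against 10.1%). TTTGAA was found in 14 (38.9%, against 16.0%), TTCGAA in 2 (5.56%, against 1.34%) and TTTAAA in 6 (16.7%, against 12.1%). A CCAAT together with any of the other motifs stood in 18 member promoters (50%) and in 9.21% of all promoters. The Smc2 and Cdk1 windows both held a CCAAT and a TTTGAA. Cdk1 RNA fell with PA + PS2 in edgeR's test with the repeat number in the model, described below, and Smc2 RNA did not pass it. In the planned edgeR test without the repeat number, neither passed against the control (adjusted p = 0.417 for Cdk1 and 0.968 for Smc2). A match is a description of these letters and not evidence that a factor binds there.

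The summed level of the 38 genes was lowest in both PA + PS2 libraries. It was 278 CPM in repeat 1 and 453 in repeat 2 of the control, 295 and 572 CPM with PA, and 179 and 206 CPM with PA + PS2. Within repeat 1, PA + PS2 thus held 64.4% of the control sum, and within repeat 2 it held 45.3%. The 4 libraries without PS2 split by repeat number, with repeat 2 above repeat 1, while the PA + PS2 libraries lay close to each other. Gene by gene, both PA + PS2 libraries were the lowest of the 6 for 34 of 38 members, as they were for 11.2% of all genes tested. The PA repeat 2 library was the highest of the 6 for 33 members (17.7% of all genes tested). Per kilobase of merged exons, mean levels over the 6 libraries ran from 0.272 CPM per kb for Ndc80 to 4.40 CPM per kb for Ncapd2.

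**Figure D1:**
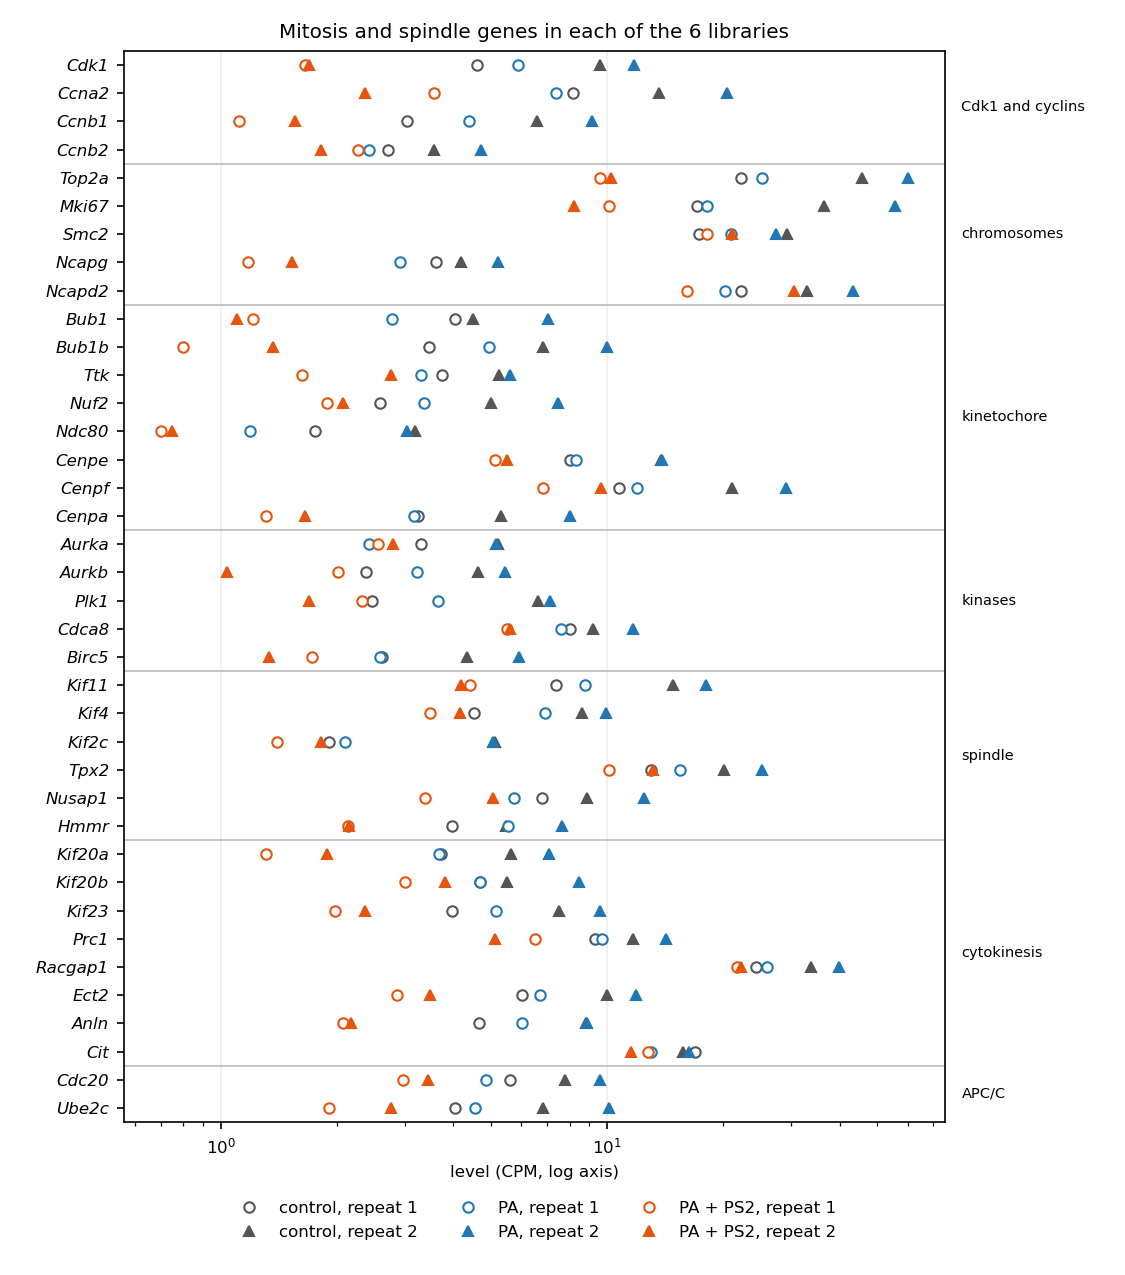
The level of each of the 38 genes (CPM, log axis) is plotted for each of the 6 libraries, with open circles for repeat 1, filled triangles for repeat 2, and colour for the group. The PA + PS2 symbols are the 2 leftmost in 34 of 38 rows, and the triangle of PA repeat 2 is the rightmost in 33.

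The first comparison asks what the scaffold with PS2 did relative to the control. All 38 members had a log2 fold change below 0, with a median of -1.09 with the repeat number in the model, where the median of all genes was 0.01 and 47.7% of genes were below 0. In edgeR's quasi-likelihood test without the repeat number, 0 of 38 members passed an adjusted p of 0.05 (smallest 0.417), as did 0 of 17299 genes. At an unadjusted p under 0.05, 25 members were lower, against 4.61% of all genes. With the repeat number in the model, called the blocked test from here on, 13 of 38 members (34.2%) fell, against 0.578% of all genes, and 0 members rose. They were Cdk1, Ccnb1, Ncapg, Bub1, Bub1b, Cenpe, Cenpf, Cenpa, Kif20a, Kif23, Ect2, Anln and Ube2c. DESeq2 called 7 members lower without the repeat number, against 0.607% of all genes, and 18 with it, against 1.35%. With no filter on low counts, edgeR without the repeat number called 20 members and 1.15% of all genes. Both PA + PS2 libraries lay below both control libraries for 35 members, against 17.1% of all genes, and 37 were lower within each repeat, against 28% of all genes.

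The number of calls rested on single libraries. In the blocked test 0 members were called lower without control repeat 2 (0.0164% of all genes), 2 (Top2a and Bub1b) without PA + PS2 repeat 2 (0.0598%) and 6 without control repeat 1 (0.729%). The count was 29 without PA repeat 1, 26 without PA repeat 2 and 30 without PA + PS2 repeat 1, and the share of all genes called lower was higher in these fits too, at 3.56%, 3.41% and 3.99%. The direction of the members changed less, with 37 or 38 of 38 below 0 in each of these 6 fits.

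Between PA + PS2 and PA, the comparison that asks what PS2 added, the median log2 fold change was -1.36 and all 38 members were again below 0, against 49.7% of all genes. This comparison shares the PA + PS2 libraries with the former, so the lists of calls are not independent. The test without the repeat number called 0 members (smallest adjusted p = 0.245) and 0 genes, with 31 members lower at an unadjusted p under 0.05 (5.44% of all genes). The blocked test called 21 members lower (55.3%), against 1.32% of all genes, and 0 higher. These were the 13 named against the control with Nuf2, Kif11, Kif4, Tpx2, Nusap1, Hmmr, Prc1 and Cdc20. DESeq2 called 14 without the repeat number, against 0.936% of all genes, and 23 with it, against 1.78%. With no filter, edgeR without the repeat number called 26 members and 1.33% of all genes. The blocked count was 4 (Cdk1, Ccnb1, Top2a and Bub1b) without PA + PS2 repeat 2, against 0.152% of all genes, and 14 without PA repeat 2, against 0.942%. It was 33 without PA repeat 1 and 32 without PA + PS2 repeat 1, in fits that called 3.97% and 4.35% of all genes lower, and 21 and 20 without control repeats 1 and 2 (1.46% and 1.22%). Over both comparisons, 14 members did not pass the blocked test with all 6 libraries but passed in at least 1 of the blocked fits that left out a library: Ccna2, Ccnb2, Top2a, Mki67, Ncapd2, Ttk, Ndc80, Aurkb, Plk1, Cdca8, Birc5, Kif2c, Kif20b and Racgap1. Smc2, Aurka and Cit passed in none of these fits. Groups did not overlap for 35 members, PA + PS2 being lower, against 18.4% of all genes.

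**Figure D2:**
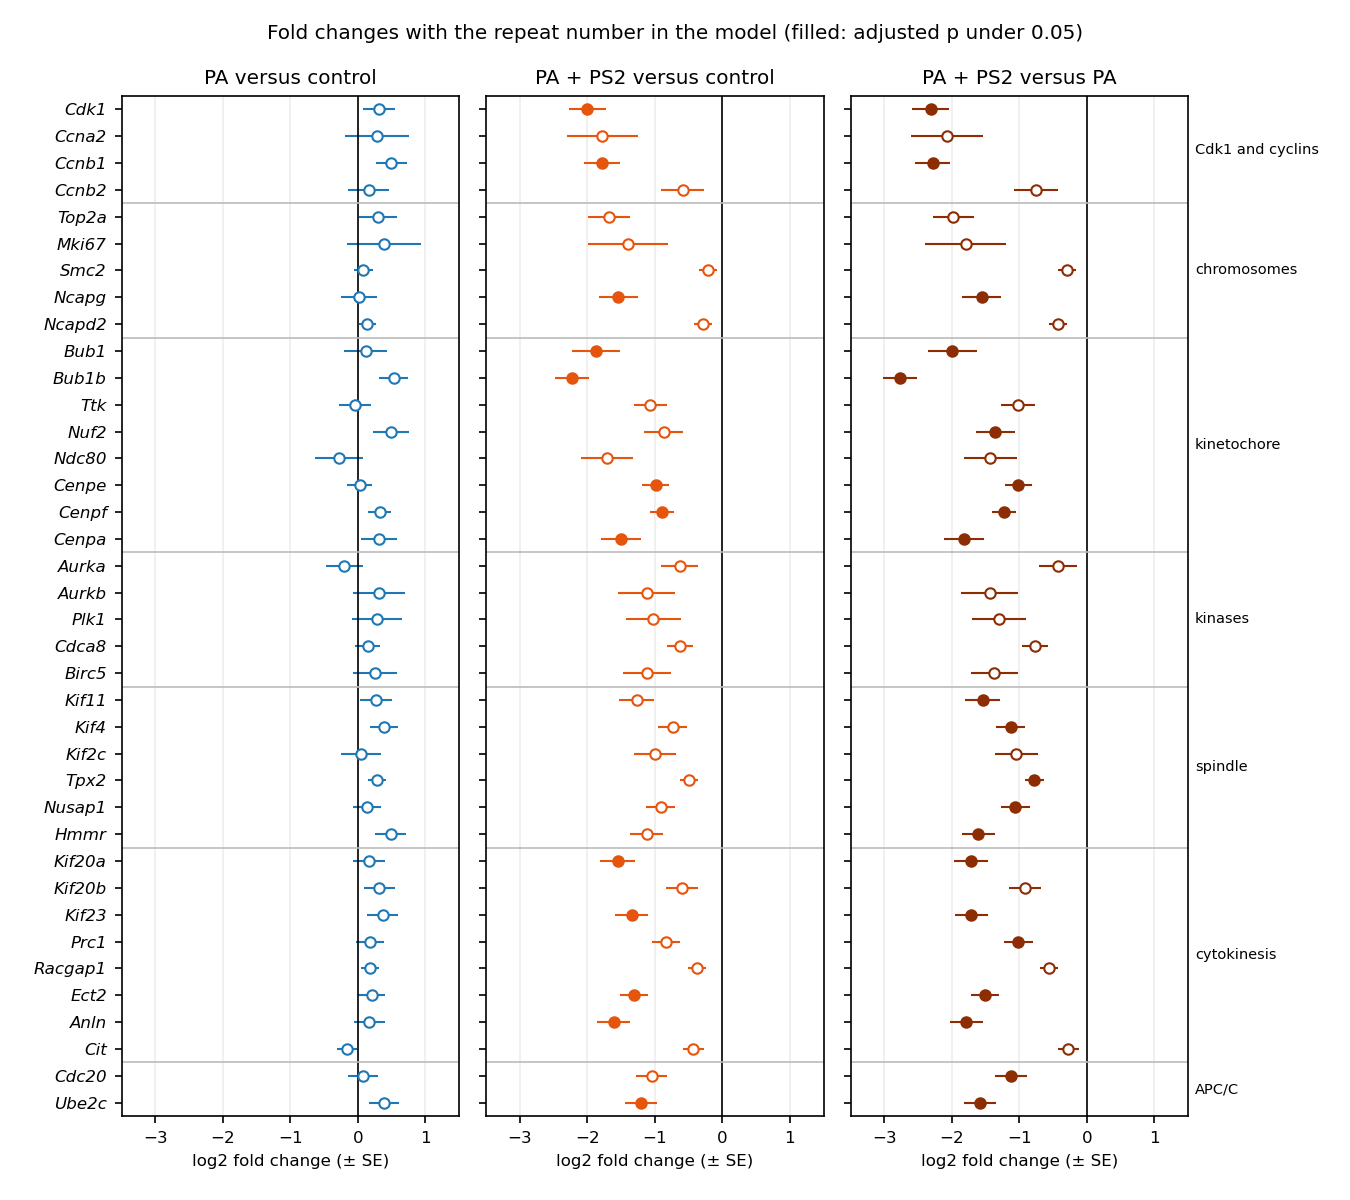
Log2 fold changes of the 38 genes with their standard errors are plotted for the 3 comparisons, from the model with the repeat number, and filled symbols mark an adjusted p under 0.05. No symbol is filled for PA versus control, 13 are filled for PA + PS2 versus control and 21 for PA + PS2 versus PA, all on the negative side.

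Cdk1 and its cyclins had the lowest medians of the 7 roles in both comparisons with PA + PS2 (-1.78 against the control and -2.17 against PA). Cdk1 (chr10:69335146-69352938), the kinase that drives mitotic entry, was at 4.61 and 9.58 CPM in control repeats 1 and 2, 5.87 and 11.7 with PA, and 1.66 and 1.69 with PA + PS2. Ccnb1, cyclin B1, was at 3.04 and 6.58, 4.39 and 9.15, and 1.11 and 1.56 CPM in the same order, and Ccna2, cyclin A2, which acts from S phase to early mitosis, at 8.16 and 13.6, 7.39 and 20.4, and 3.57 and 2.37 CPM. For all of these both PA + PS2 libraries lay below the other 4. In the blocked test Cdk1 fell by 2.00 (log2, SE 0.27, adjusted p = 0.00773) against the control and by 2.31 (SE 0.27, adjusted p = 0.00295) against PA. Ccnb1 fell by 1.78 (SE 0.26, adjusted p = 0.0119) and 2.28 (SE 0.26, adjusted p = 0.00295). Ccna2 had fold changes of similar size, -1.78 and -2.07, with larger standard errors of 0.53 and 0.53, and did not pass (adjusted p = 0.341 and 0.256). Its difference from the control was -1.17 within repeat 1 and -2.47 within repeat 2. Ccnb2, cyclin B2, differed least in this role (-0.59, SE 0.32, and -0.75, SE 0.32) and did not pass.

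Among the 5 genes of chromosome structure, 1 fell in the blocked test in each comparison, and the sizes of change were uneven. The shares of all genes that fell were 0.578% against the control and 1.32% against PA. Top2a (chr11:98992943-99024189), the topoisomerase that untangles sister chromatids, was at 22.2 and 45.8 CPM in the control, 25.2 and 60.1 with PA, and 9.59 and 10.3 with PA + PS2. Mki67, the Ki-67 antigen that coats mitotic chromosomes, ranged from 8.21 to 10.1 CPM with PA + PS2 and from 17.1 to 55.5 CPM in the other 4 libraries. The PA + PS2 libraries were thus well below the rest for both genes, and neither passed the blocked test (Top2a -1.68, SE 0.31, adjusted p = 0.159; Mki67 -1.40, SE 0.59, adjusted p = 0.577, against the control). Within repeats the Mki67 difference from the control was -0.76 and -2.14, and repeat 2 lay above repeat 1 in the control and with PA but not with PA + PS2. Against the control, the Top2a fold change ran from -2.22 to -1.16 in the 6 blocked fits that leave out 1 library.

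The 3 condensin subunits, which shape the mitotic chromosome, had unlike values. Ncapg, a subunit of condensin I, was at 3.60 and 4.2 CPM in the control, 2.90 and 5.24 with PA, and 1.18 and 1.53 with PA + PS2, and fell by 1.54 (SE 0.29, adjusted p = 0.0333) against the control and 1.56 (SE 0.29, adjusted p = 0.0206) against PA in the blocked test. Smc2 (chr4:52439243-52488260), the core subunit shared by both condensins, was at 17.3 and 29.2, 21.0 and 27.4, and 18.1 and 21.1 CPM. Ncapd2, another subunit of condensin I, was at 22.2 and 33.0, 20.2 and 43.5, and 16.1 and 30.4 CPM. For Smc2 and Ncapd2 the groups overlapped, and the log2 fold changes of -0.21 (SE 0.14) and -0.29 (SE 0.13) against the control were the smallest of the 38. Without control repeat 2 the Smc2 fold change turned to 0.02 in the blocked test. The difference between Ncapg and the other subunits was not itself tested.

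At the kinetochore, the structure that ties a chromosome to the spindle, 5 of 8 genes fell against the control and 6 of 8 against PA in the blocked test. Of all genes, 0.578% and 1.32% fell in those comparisons. Bub1b (chr2:118598211-118641591), the checkpoint protein BubR1, showed the largest difference of all members. It was at 3.45 and 6.85 CPM in the control, 4.94 and 10.0 with PA, and 0.796 and 1.36 with PA + PS2, which is 23.1% of the control in repeat 1 and 19.9% in repeat 2. It fell by 2.23 (SE 0.25, adjusted p = 0.00461) against the control and by 2.76 (SE 0.25, adjusted p = 0.000780) against PA. Against the control it passed in 5 of the 6 blocked fits that leave out 1 library, all except the one without control repeat 2 (adjusted p = 0.0778).

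Bub1, the kinase that recruits checkpoint proteins to kinetochores, was at 4.05 and 4.49 CPM in the control, 2.78 and 7.03 with PA, and 1.21 and 1.10 with PA + PS2. Cenpa, the histone H3 variant that marks centromeres, was at 3.24 and 5.33, 3.16 and 8.04, and 1.31 and 1.66 CPM. Both fell in the blocked test, Bub1 by 1.88 (SE 0.36, adjusted p = 0.0396) and Cenpa by 1.5 (SE 0.29, adjusted p = 0.0396) against the control. Cenpe, a kinesin that carries chromosomes to the spindle equator, was at 8.01 and 13.8, 8.33 and 13.8, and 5.13 and 5.52 CPM. Cenpf, a large protein of the outer kinetochore, was at 10.7 and 21.0, 11.9 and 29.0, and 6.82 and 9.64 CPM. These 2 fell by less, Cenpe by 0.98 (SE 0.20, adjusted p = 0.0460) and Cenpf by 0.89 (SE 0.18, adjusted p = 0.0460) and both PA + PS2 libraries were the lowest of the 6 for each.

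Nuf2 and Ndc80 are partners in the complex that grips microtubules at the kinetochore. Nuf2 was at 2.59 and 5.0 CPM in the control, 3.36 and 7.48 with PA, and 1.88 and 2.08 with PA + PS2, and fell against PA by 1.35 (SE 0.29, adjusted p = 0.0370), while against the control it did not pass (-0.86, SE 0.29, adjusted p = 0.236). Whether those differences differ from each other was not tested. Ndc80, the member with the lowest level per kilobase, had fold changes of -1.71 (SE 0.39) and -1.43 (SE 0.39), and its 2 PA + PS2 libraries held 22 and 23 counts. Ttk, the kinase Mps1 at the head of the checkpoint, had fold changes of -1.06 (SE 0.25) and -1.02 (SE 0.25). Neither Ndc80 nor Ttk passed (adjusted p = 0.0727 and 0.0806 against the control).

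None of the 5 mitotic kinase and chromosomal passenger genes passed in either comparison with PA + PS2, although all 5 fold changes were below 0. Cdca8, borealin, a subunit of the passenger complex, was at 8.04 and 9.20 CPM in the control, 7.58 and 11.7 with PA, and 5.51 and 5.62 with PA + PS2, and both PA + PS2 libraries were below the other 4 (-0.62, SE 0.20, adjusted p = 0.195 against the control). Aurkb, the kinase of that complex, Birc5, survivin, also of that complex, and Plk1, a kinase of entry, spindle and exit, had fold changes of -1.12, -1.12 and -1.02 with standard errors of 0.42, 0.35 and 0.40. These 3 differed from the control by -0.24, -0.58 and -0.08 within repeat 1 and by -2.06, -1.64 and -1.91 within repeat 2. Aurka, the kinase of spindle poles, was at 2.42 CPM in PA repeat 1, the lowest of its 6 values, against 2.55 and 2.79 CPM with PA + PS2, so PA and PA + PS2 overlapped for it.

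The 6 spindle motor and assembly genes had medians of -0.95 against the control and -1.09 against PA. In the blocked test 5 of 6 fell against PA (1.32% of all genes) and none against the control (0.578%). Kif11, the Eg5 motor that pushes spindle poles apart, was at 7.38 and 14.8 CPM in the control, 8.78 and 18.1 with PA, and 4.43 and 4.19 with PA + PS2. Hmmr, a spindle pole protein, was at 3.96 and 5.48, 5.55 and 7.66, and 2.13 and 2.14 CPM. Kif4, a chromosome-bound kinesin, was at 4.52 and 8.63, 6.91 and 9.97, and 3.47 and 4.16 CPM. In all of these both PA + PS2 libraries lay below the other 4, and Hmmr was the single member for which both PA libraries lay above both control libraries (12.1% of all genes). Against PA, Hmmr fell by 1.61 (SE 0.24, adjusted p = 0.00647), Kif11 by 1.54 (SE 0.26, adjusted p = 0.0208) and Kif4 by 1.13 (SE 0.22, adjusted p = 0.0250), and against the control their adjusted p were 0.0601, 0.0651 and 0.173.

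Nusap1, which bundles spindle microtubules, was at 6.79 and 8.90 CPM in the control, 5.74 and 12.5 with PA, and 3.38 and 5.06 with PA + PS2. Tpx2, which activates Aurora A on the spindle, was at 13.0 and 20.1, 15.4 and 25.2, and 10.1 and 13.2 CPM, so PA + PS2 repeat 2 overlapped control repeat 1. Nusap1 fell by 1.06 (SE 0.22, adjusted p = 0.0320) and Tpx2 by 0.78 (SE 0.14, adjusted p = 0.0166) against PA. Kif2c, a kinesin that takes microtubules apart, was at 1.91 and 5.12, 2.10 and 5.08, and 1.40 and 1.82 CPM and passed in neither comparison. In the model with group and repeat, the repeat difference of Kif2c was the largest of the members, as described with the repeats. Within each single group another member differed more, such as Mki67 with PA (log2 1.61, against 1.24 for Kif2c).

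Of the 8 central spindle and cytokinesis genes, which build the midzone and the contractile ring, 4 fell against the control and 5 against PA in the blocked test. The shares of all genes were 0.578% and 1.32%. Anln, anillin, the scaffold of the contractile ring, was at 4.67 and 8.84 CPM in the control, 6.03 and 8.89 with PA, and 2.07 and 2.18 with PA + PS2. Ect2, the exchange factor that switches on RhoA at the cell equator, was at 6.04 and 10.0, 6.71 and 11.9, and 2.87 and 3.47 CPM. Both fell against the control (Anln by 1.61, SE 0.25, adjusted p = 0.0143; Ect2 by 1.31, SE 0.21, adjusted p = 0.0171). Kif20a, a midzone kinesin, was at 3.72 and 5.66, 3.68 and 7.07, and 1.31 and 1.88 CPM. Kif23, the motor subunit of centralspindlin, was at 3.96 and 7.5, 5.16 and 9.62, and 1.97 and 2.37 CPM. These also had no overlap of PA + PS2 with the other groups, and fell against the control by 1.55 (SE 0.26, adjusted p = 0.0193) and 1.34 (SE 0.25, adjusted p = 0.0303).

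Prc1, which crosslinks the midzone microtubules, was at 9.29 and 11.7 CPM in the control, 9.68 and 14.2 with PA, and 6.50 and 5.13 with PA + PS2, and fell against PA by 1.01 (SE 0.21, adjusted p = 0.0365) and did not pass against the control (-0.83, adjusted p = 0.107). Racgap1, the partner of Kif23 in centralspindlin, was at 24.3 and 33.7, 26.0 and 39.9, and 21.7 and 22.2 CPM. The partners thus differed in size of change, -1.34 for Kif23 and -0.38 (SE 0.13) for Racgap1 against the control, a difference that was not itself tested. Kif20b, a further cytokinesis kinesin, had fold changes of -0.60 (SE 0.24) and -0.92 (SE 0.23) and did not pass.

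Cit (chr5:115845278-116008947), the citron gene, makes a long kinase that acts in cytokinesis and a shorter form known from neurons, and counts per gene cannot separate these. Its levels stayed between 11.5 and 16.9 CPM in the 6 libraries, with the highest value in control repeat 1. Its fold changes were -0.43 (SE 0.15, adjusted p = 0.269) against the control and -0.27 (SE 0.15, adjusted p = 0.548) against PA. Smc2, Ncapd2, Racgap1, Cit and Tpx2 were the members with the smallest differences from the control, and Ncapd2, Smc2, Racgap1 and Tpx2 also had the highest levels per kilobase in the PA + PS2 group (3.72, 3.58, 3.10 and 2.49 CPM per kb). Without Racgap1, Smc2, Ncapd2 and Cit, the sum over the other 34 members was 198 and 342 CPM in the control, 215 and 445 with PA, and 111 and 120 with PA + PS2, or 55.9% of the control in repeat 1 and 35.2% in repeat 2. These 4 were set apart after their values were seen, for their small differences, so the lower shares follow from that choice.

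The 2 genes that act with the anaphase-promoting complex were lower with PA + PS2 than in the other 4 libraries. Cdc20, its activator in mitosis, was at 5.63 and 7.77 CPM in the control, 4.87 and 9.62 with PA, and 2.96 and 3.44 with PA + PS2. Ube2c, the ubiquitin-conjugating enzyme that works with it, was at 4.05 and 6.85, 4.55 and 10.1, and 1.91 and 2.76 CPM. Ube2c fell against both, by 1.20 (SE 0.24, adjusted p = 0.0438) and 1.58 (SE 0.24, adjusted p = 0.00655), and Cdc20 against PA, by 1.12 (SE 0.23, adjusted p = 0.0347), while against the control it did not pass (-1.05, SE 0.23, adjusted p = 0.0675). Of the 16 core subunits of the complex itself 0 passed in any comparison, their medians were 0.05 against the control and 0.10 against PA, and Anapc5 and Anapc1, the subunits with the highest CPM, lay between 355 and 388 and between 226 and 277 CPM in the 6 libraries.

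Whether counting used the strand is not stated for these files, so members that overlap a protein-coding gene on the opposite strand are uncertain. They are Ube2c (with Tnnc2), Kif20a (Cdc23), Cdc20 (Elovl1), Ncapg (Lcorl), Nusap1 (Oip5), Ccna2 (Exosc9), Cdca8 (9930104L06Rik), Kif4 (Pdzd11) and Prc1 (Rccd1). Kif11, Cenpf and Smc2 contain annotated processed pseudogenes.

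The comparison of PA with the control, which asks what the peptide scaffold alone did, showed no call. In edgeR 0 of 38 members passed with or without the repeat number (0% of all genes), the smallest unadjusted p of a member was 0.113 without it and 0.0284 with it, and DESeq2 called 0. At an unadjusted p under 0.05 without the repeat number there were 0 members, 0.26% of genes lower and 0.335% higher. The median log2 fold change was 0.23 and 34 members were above 0, against 53.1% of all genes, but within repeats the medians were 0.09 and 0.32, and 20 members were higher in both repeats (24.4% of all genes). Cdk1, Mki67 and Bub1b had values of 0.32 (SE 0.24), 0.39 (SE 0.55) and 0.53 (SE 0.21) in the blocked test, and Cit -0.16 (SE 0.15). Without PA repeat 2 the median of the members turned to -0.34, and to -0.06 in the blocked test, and without control repeat 1 it was -0.03 and 0.15.

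**Figure D3:**
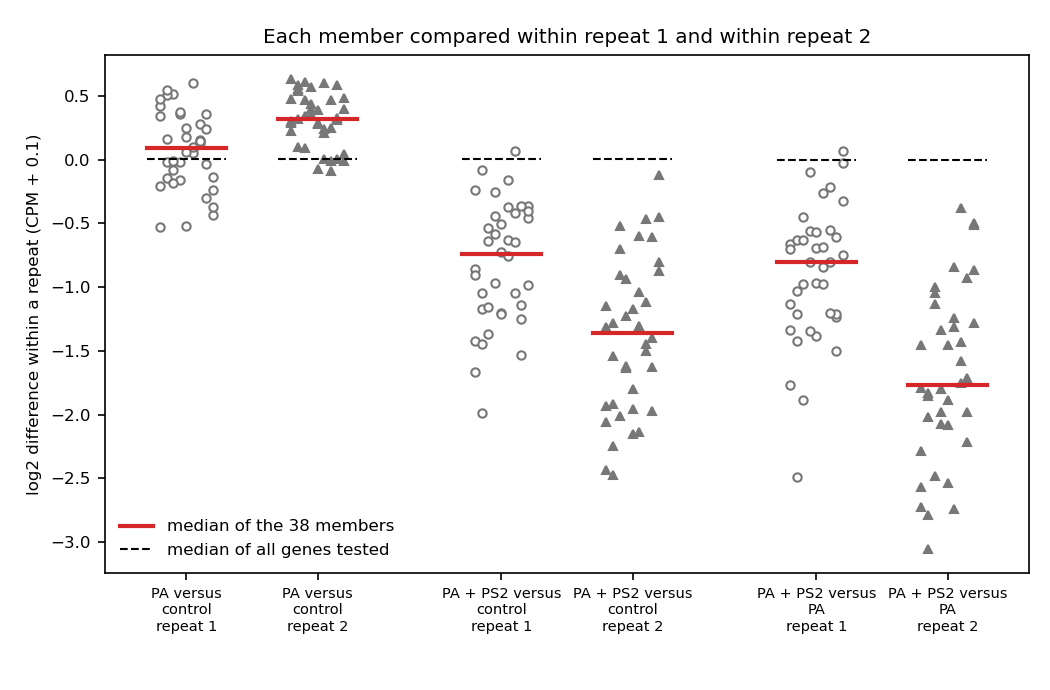
The difference of each member within repeat 1 (circles) and within repeat 2 (triangles) is plotted on the log2(CPM + 0.1) scale for each comparison, with the median of the 38 members as a red line and that of all genes tested as a dashed line. For PA + PS2 the member medians are -0.74 and -1.36 against the control and -0.80 and -1.77 against PA, and for PA against the control 0.09 and 0.32.

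The members also differed between the repeats. In the model with group and repeat, 11 members (28.9%) were called higher in repeat 2, against 1.94% of all genes, 0 were lower, and all 38 had a difference above 0 (51.7% of all genes) with a median of 0.65. They were Ccnb1, Smc2, Ncapd2, Bub1b, Cenpf, Kif2c, Tpx2, Nusap1, Kif23, Ect2 and Ube2c, led by Kif2c (1.07, SE 0.25, adjusted p = 0.0320) and Bub1b (0.95, SE 0.19, adjusted p = 0.0133). Smc2 (0.45, SE 0.11, adjusted p = 0.0353) and Ncapd2 (0.86, SE 0.11, adjusted p = 0.000713) thus differed by repeat while they did not pass between groups. The median difference of repeat 2 from repeat 1 was 0.73 in the control, 0.96 with PA and 0.13 with PA + PS2, and 37, 38 and 28 members were higher in repeat 2, against 51.5%, 49.6% and 50.3% of all genes. Whether the repeat difference itself differed between groups was not tested. The count was 2 without control repeat 1 and 2 without control repeat 2, against 0.46% and 0.416% of all genes, and 7 and 5 without PA repeat 1 and 2, against 2.89% and 2.86%. It was 27 and 23 without PA + PS2 repeat 1 and 2, against 2.56% and 2.08%.

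Other genes of mitosis, a list of 69 that were not members, also lay lower with PA + PS2. In the blocked test 3 fell against the control, which were Cdca2, a chromatin-bound phosphatase subunit, Pbk, a mitotic kinase, and Iqgap3, a scaffold protein. Cdca2 was at 2.71 and 4.97 CPM in the control, 3.32 and 5.61 with PA, and 0.669 and 0.877 with PA + PS2 (-2.27, SE 0.30, adjusted p = 0.00764). Against PA 12 fell: these 3 with Sgo1, Kif14, Kif18a, Zwilch, Cdca3, Smc4, Dlgap5, Arhgap11a and Cep55. The shares of all genes that fell were 0.578% against the control and 1.32% against PA. The list median was -0.63 against the control, with 63 of 69 below 0, and -0.81 against PA, with 66 of 69 below 0. Zwint, a kinetochore gene at 412 to 530 CPM, and Bub3, a checkpoint gene at 53.3 to 62.6 CPM, had the highest CPM and did not pass.

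Smc4, which pairs with Smc2 in condensin, was at 21.9 and 32.5 CPM in the control, 22.6 and 37.1 with PA, and 17.6 and 21.5 with PA + PS2, and fell by 0.58 (SE 0.12, adjusted p = 0.0365) against PA. Of 23 transcriptional regulators of the mitotic genes, 0 fell against the control (0.578% of all genes) and 2 against PA (1.32%). These were Foxm1, a forkhead activator of the mitotic genes, by 1.46 (SE 0.25, adjusted p = 0.0168), and Rbl1, the pocket protein p107, by 1.22 (SE 0.26, adjusted p = 0.0379). Foxm1 was at 6.43 and 10.1, 8.29 and 15.3, and 4.43 and 3.77 CPM in control, PA and PA + PS2. Rbbp4, a histone-binding subunit of MuvB, and Nfya, a subunit of NF-Y, had the highest CPM (158 to 200 and 111 to 132 CPM) and fold changes of 0.12 and 0.03 against the control. Of 14 Cdk inhibitors and genes of cell cycle exit 0 passed, and Cdkn1b, p27, lay between 159 and 206 CPM and Ccng2 between 67.3 and 86.5 CPM.

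Genes of earlier cell cycle phases had medians nearer 0 than the members, a difference that was not tested. Of all genes, 0.578% fell against the control and 1.32% against PA in the blocked test. Of 11 G1 cyclins and kinases, 1 fell against the control and 4 against PA (Ccnd1, Ccnd2, Cdk2 and Cdk6), with medians of -0.20 and -0.42. Ccnd2, cyclin D2, was at 70.7 and 118 CPM in the control, 79.9 and 144 with PA, and 42.8 and 57.4 with PA + PS2, and was the one to fall against the control, by 0.88 (SE 0.10, adjusted p = 0.00461). Cdk4, its kinase partner, lay between 121 and 136 CPM. Of 32 DNA replication genes, 1 fell against the control (Clspn, claspin, by 1.87, SE 0.31, adjusted p = 0.0206) and 4 against PA (Mcm2, Mcm3, Rrm2 and Clspn), with medians of -0.23 and -0.39. Rrm1 and Pcna, with the highest CPM of that list, lay between 40.7 and 54.7 and between 33.2 and 43.7 CPM and did not pass. The summed CPM of the 38 members over that of the replication genes was 0.802 and 1.07 in the control, 0.785 and 1.22 with PA, and 0.585 and 0.571 with PA + PS2. The PA + PS2 ratios were the 2 lowest of the 6.

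Markers of several cell types other than neurons also had lower values with PA + PS2, though few passed. Against the control, 0 genes of any of the 14 lists passed with PA alone, and no gene of the lists for cell types passed without the repeat number in any comparison. In the blocked test with PA + PS2 against the control, 1 of 8 oligodendrocyte precursor genes, 3 of 15 progenitor genes, 1 of 13 fibroblast, mural and meningeal genes, 0 of 11 astrocyte genes and 0 of 4 endothelial genes fell. The share of all genes that fell was 0.578% there and 1.32% against PA. Against the control, the medians of these lists were -2.02, -0.45, -0.98, -0.70 and -0.43, where that of the members was -1.09. The lists were not compared with each other by a test. The oligodendrocyte precursor list summed to 58.8 and 109 CPM in the control, 54.4 and 150 with PA, and 28.5 and 23.0 with PA + PS2, with 8 of 8 tested genes below 0 against the control. Of these genes, Cspg4, the NG2 proteoglycan, fell against the control by 2.39 (SE 0.29, adjusted p = 0.00526) and, with Lhfpl3, against PA. Olig1, a transcription factor of that lineage, was at 12.5 and 37.9, 9.75 and 59.6, and 2.45 and 2.37 CPM, and Neu4 was listed at 0 in every library. The progenitor and radial glia list summed to 352 and 589, 413 and 748, and 274 and 310 CPM, with 12 of 15 below 0 against the control. Nes, nestin, at 38 and 76.6, 43.4 and 87.4, and 20.2 and 25.3 CPM, fell by 1.26 (SE 0.17, adjusted p = 0.0303), Hes1 and Notch1 fell too, and against PA the genes to fall were Nes, Vim, Sox9 and Notch1. Vim and Fabp7, with the highest CPM in that list, lay between 143 and 222 and between 19.3 and 201 CPM.

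The astrocyte list summed to 317 and 417 CPM in the control, 341 and 564 with PA, and 323 and 373 with PA + PS2. Within it 7 of 11 tested genes were below 0 against the control and 0 passed, and Aldoc, Gja1 and Mlc1 fell against PA, while Slc1a2 and Sparcl1 lay between 163 and 215 and between 93.1 and 119 CPM. The fibroblast, mural and meningeal list summed to 138 and 158, 174 and 100, and 102 and 41.8 CPM, with 11 of 13 tested genes below 0 against the control. Mgp fell against the control, and Mgp, Pdgfrb and Rgs5 fell against PA. The Mgp count was 0 in some library, which limits its fold changes. Acta2 and Col1a1 lay at 19.4 to 87.8 and 5.36 to 40.5 CPM. The myelinating oligodendrocyte list went the other way, with 46.2 and 49.1, 59.7 and 52.2, and 77.2 and 114 CPM. In the blocked test 2 of its 9 tested genes rose against the control and 1 against PA. The shares of all genes that rose were 0.121% and 0.202%. The list medians were 1.60 and 1.57, with 9 of 9 above 0 in both comparisons. Cldn11, a tight junction protein of myelin, was among the genes that rose against the control. Mbp and Mog lay between 21.3 and 53.6 and between 6.52 and 13.8 CPM. Mag, Mobp and Opalin had a count of 0 in some library. Microglial markers summed to 7.92 to 9.91 CPM. Endothelial markers were lowest in both PA + PS2 libraries, at 9.85 and 7.98 CPM in the control, 11.6 and 7.25 with PA, and 5.70 and 5.32 with PA + PS2, with 4 of 4 tested genes below 0 against the control, Kdr and Flt1 the highest, and Ly6c1 at 0 in every library.

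The neuron list summed to 9567 to 10192 CPM in the 6 libraries, with 0 of 14 genes past the threshold against the control and Gad1, an enzyme of GABA synthesis, lower against PA (-0.30, SE 0.07, adjusted p = 0.0485). The part of each of these cell types in the level of the mitotic genes was not tested.

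**Figure D4:**
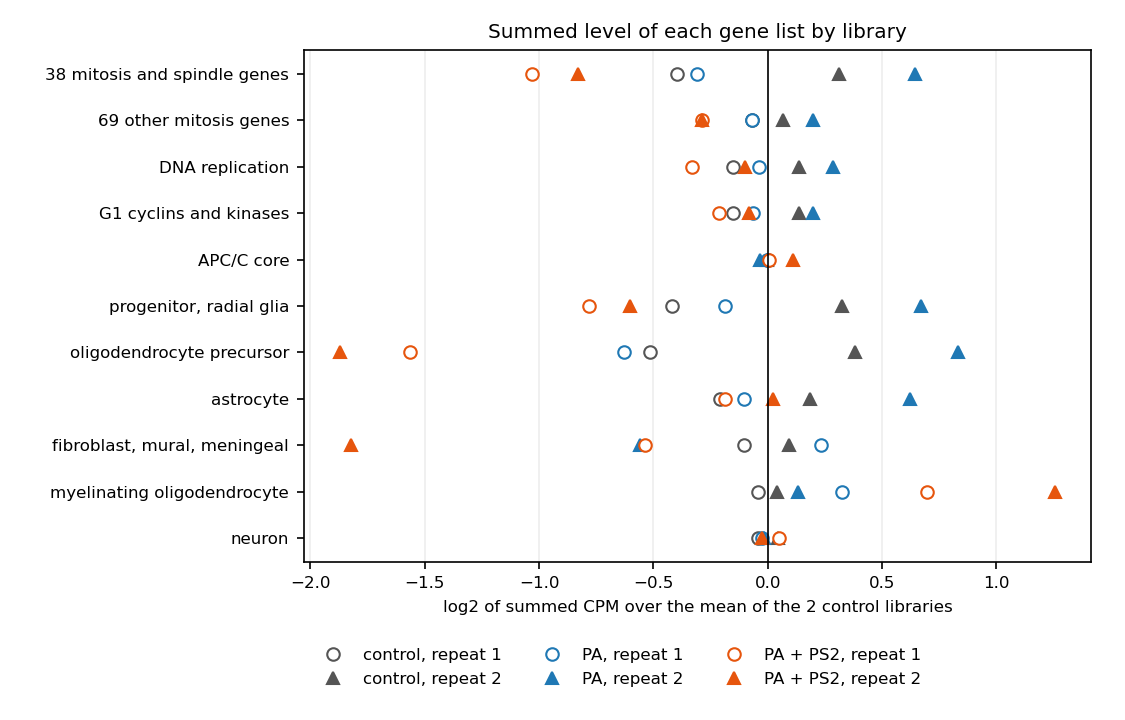
The summed CPM of the 38 members and of 10 other lists in each library is plotted as log2 of its ratio to the mean of the 2 control libraries, with open circles for repeat 1 and filled triangles for repeat 2. The PA + PS2 libraries are leftmost for the 38 members, the other mitosis genes, the progenitor list and the oligodendrocyte precursor list, rightmost for the myelinating list, and the neuron list stays near 0 in all libraries.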

How the data were processed

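Labels' protocols name the RNeasy micro kit for extraction and the TruSeq Total RNA kit for the libraries. The molecule label, in contrast, gives polyA RNA. Each deposited file holds raw counts of 1 library by Ensembl gene, per the file headers and the whole numbers in them. The tools in the submitters' processing notes are HTSeq 2.0.2, STAR 2.7.5, cutadapt 4.2 and DESeq2 1.14.1, and the build is mm10, with no roles given. Settings, annotation release, strand handling and filters: not given in the sources used here. Of 54232 identifiers, 153 had no symbol in the reference. Coordinates come from GENCODE M21 on GRCm38 (mm10).

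The test was that of edgeR 4.0.16 (R 4.3.3), using TMM, filterByExpr on the groups and the robust quasi-likelihood F test. All 6 libraries entered 1 model with 3 residual degrees of freedom, and p-values were adjusted by Benjamini-Hochberg over 17299 genes with a threshold of 0.05. Standard errors were derived from the fold change and the F statistic. The biological coefficient of variation (BCV) was 16.7%. With the repeat number as a block the BCV was 9.57% and 2 degrees of freedom remained. The planned test was the one without the repeat number, and the block was an alternative to it. The pairing by repeat number was taken from the data. Differences between repeats correlated at 0.35 (control and PA), 0.36 (control and PA + PS2) and 0.21 (PA and PA + PS2) over 17299 genes. No label ties a repeat number to a litter, batch or day. Libraries within a group differed by more than sampling noise (chi-square over its degrees of freedom 16.1 to 23.4), so none was merged. The code was tested on simulated data. Within-repeat differences use log2(CPM + 0.1).

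The members and the 14 lists (260 genes) were chosen with earlier results of these data known, so their direction is not independent evidence. Values in every library are given for members past the threshold in any comparison in edgeR's fits to all 6 libraries, with or without the block, and for the one with the highest CPM, which is not scaled for length, in each role. List genes are named where they passed or had the 2 highest CPM values. Some list genes that meet this rule are not reported here. Alternatives were RLE factors, library totals, no filter, at least 50 counts in 2 libraries, DESeq2 1.42.0, the block, only the 2 groups compared, and leaving out each library. Promoters are RefSeq sequence on GRCm38.p6, and those of 4 members were not analysed here.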

Additional observations from a re-analysis of the deposited data

How the results depend on the processing

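Beside the 0 members that edgeR called without the block, the count lower with PA + PS2 than the control was 13 with the replicate block, 20 with no filter, 7 with DESeq2, 18 with DESeq2 and the replicate block and 24 with only those 2 groups and the replicate block. Against PA these counts were 21, 26, 14, 23 and 12. The fits to only the 2 groups compared, with the block, called 3.23% of all genes lower against the control and 0.713% against PA. The count higher in repeat 2 was 11, against 1.94% of all genes, and 22 with no filter, also against 1.94%. RLE factors, library totals and the stricter filter changed no count by over 1.5 times, and all 38 fold changes against control and PA stayed below 0 under each scaling.

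When each library was left out in turn, with and without the block, these counts ran from 0 to 30 against the control, 0 to 33 against PA and 2 to 27 between repeats. The median of the members ran from -1.53 to -0.69 for PA + PS2 against the control, from -1.84 to -0.80 against PA, and from -0.34 to 0.65 for PA against the control. For PA against the control, 32 of 38 members changed sign without PA repeat 2 and 19 without control repeat 1, or 19 and 7 with the replicate block, and 3 to 5 without PA repeat 1 or control repeat 2. Values that changed sign among the genes named for their fold change were those of Cdk1 (-0.29 to 0.93), Mki67 (-0.58 to 1.10), Bub1b (-0.073 to 1.11) and Cit (-0.40 to 0.056) for PA against the control, Smc2 (-0.57 to 0.18) and Ncapd2 (-0.77 to 0.14) for PA + PS2 against the control, and Ncapd2 (-0.98 to 0.21) and Aurka (-0.95 to 0.15) against PA. A group with 1 library left was assumed to vary like the others. The cause of these shifts was not tested. Low counts limit single members, such as Ndc80 with 22 counts in a library.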
